A study of Homo sapiens with 18 samples.

Results

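The genes examined were 10 peptidyl-prolyl cis-trans isomerases, 8 that work in the endoplasmic reticulum (ER) or secretory pathway (FKBP2, FKBP7, FKBP9, FKBP10, FKBP11, FKBP14, PPIB and PPIC) and 2 cytosolic ones (FKBP1A and PPIA). They were chosen by name, as a compartment contrast within a pair of enzyme families, with earlier results of these data known. All 10 had a row among the 25435 of a table of read counts per gene symbol. The RNA-Seq libraries came from HEK293doxERN2, a line of human embryonic kidney HEK293 cells with a FLAG-tagged human ERN2 transgene under doxycycline control. Every library was from this single line. Cells were left without doxycycline ("no ERN2"), or were given 10 ng/mL ("low ERN2") or 100 ng/mL ("high ERN2") for 24 hours. Each dose was followed by 200 nM thapsigargin or an equal volume of DMSO, the vehicle, for 3 hours, with 3 libraries in each of the 6 groups and 18 in all. Doxycycline and the transgene it induces came together in each induced library and cannot be told apart.

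Prolyl isomerases speed the turn of the peptide bond before a proline, a slow step in protein folding. The FKBPs bind the drugs tacrolimus and rapamycin, and the cyclophilins (the PPI genes) bind cyclosporin. In the ER they assist the folding of secreted and membrane proteins, above all of collagen, whose chains are rich in proline. ERN2 (IRE1 beta) is an ER membrane sensor with a kinase and an endoribonuclease domain, like its relative ERN1 (IRE1 alpha). Such sensors splice XBP1 mRNA, which then codes for a factor that raises ER chaperone genes, and they can also cut other mRNAs at the ER. Thapsigargin blocks the pump that loads calcium into the ER and is a standard trigger of the unfolded protein response.

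The libraries held 14876416 to 24652240 counted reads. ERN2 itself was at 6.66 to 9.26 CPM (reads of a gene scaled to an equal library total) in the vehicle libraries without doxycycline, at 23.0, 27.3 and 56.8 at the low dose and at 247, 308 and 244 at the high dose. With thapsigargin it was at 10.5 to 14.4 without doxycycline, at 32.3, 54.5 and 111 at the low dose and at 268, 170 and 167 at the high dose, where replicate 1 lay apart. All CPM values given here were scaled by TMM, which evens out composition between libraries. DDIT3, the mRNA of the stress factor CHOP, was at 9.30 to 17.3 CPM in vehicle libraries and at 78.6 to 159 CPM with thapsigargin. NEFL, a neurofilament gene that HEK293 cells express, was at no less than 67.3 CPM in each library. The label for RNA extraction names colon crypt cells, but 8 of 11 markers of colon crypt epithelium (CDX1, VIL1, MUC2, KRT20, TFF3, CEACAM5, CA1 and SLC26A3) stayed at 0 to 0.242 CPM, and the other 3 (CDX2, LGR5 and EPCAM) ranged from 3.21 to 36.1 CPM. In such bulk samples fewer cells of a type and less RNA per cell cannot be told apart. Nothing in the labels says whether the replicates were separate cultures, so the p-values measure the spread between these libraries, which may be technical.

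Per kilobase of merged exons, the most abundant ER member and the most abundant cytosolic one were at like levels. In uninduced vehicle cells PPIB, cyclophilin B, stood at 134 ± 10.9 CPM per kilobase of exon (SD, n = 3) and PPIA, cyclophilin A, at 123 ± 11.1. Their ranges, 126 to 146 and 116 to 136, overlapped. Not scaled to length, PPIB was at 256 ± 20.9 CPM and PPIA at 544 ± 49.1 CPM in these libraries. FKBP1A, the small cytosolic target of tacrolimus, followed at 75.4 ± 3.89 CPM per kilobase. FKBP10, a collagen chaperone, came next at 35.5 ± 1.69, ahead of FKBP2 at 21.7 ± 0.412 and PPIC, cyclophilin C, at 15.3 ± 1.19 CPM per kilobase. FKBP9 was at 10.8 ± 0.487 and FKBP14 at 7.13 ± 0.999 CPM per kilobase. On the length used, all annotated exons merged, FKBP7 at 1.93 ± 0.503 and FKBP11 at 1.53 ± 0.0935 CPM per kilobase were lowest. Their ranges overlapped too. For FKBP11 the merged exons came to 4957 bases, against 1052 in its longest protein-coding transcript, so its place depends on the length used. With thapsigargin and 100 ng/mL doxycycline PPIA led this order at 107 ± 5.79 CPM per kilobase, FKBP1A stood at 93.4 ± 2.39 and PPIB at 88.6 ± 2.86. Merged exons of FKBP1A, PPIB and PPIA came to 2577, 1911 and 4432 bases, against 1622, 1081 and 2238 in their longest protein-coding transcripts. The order of these members may thus depend on the length as well.

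Short promoter elements are a known route by which thapsigargin and IRE1 signalling can act on ER genes. The bases before each start site were therefore searched on both strands. Of the 10 members, 8 had an entry in the RefSeq promoter table (GRCh38.p14); FKBP10 and FKBP14 did not. Within 250 bases before the most upstream RefSeq start, 0 of 8 held the full ER stress response element (CCAAT and CCACG with 9 bases between them), which 0.0769% of 27305 promoters held. Its second form (ATTGG and CCACG with 1 base between them, 0.0549% of promoters), the core TGACGTG bound by XBP1 and ATF6 (1.72%) and the element TTGCATCA bound by C/EBP and ATF4 factors (0.828%) also had 0 matches. The shorter CCACG stood in FKBP2, FKBP11, PPIB, FKBP1A and PPIA, against 33.2% of promoters, and CCAAT in FKBP2, FKBP9, PPIB and PPIA, against 33%. Both short words are parts of the first element. CCACG stood in 3 of the 6 ER members with an entry and in 2 of 2 cytosolic ones, CCAAT in 3 of 6 and 1 of 2. Whether any of these elements bears on the changes in these mRNAs was not tested. The sequences below are the part of this window that lies before the annotated GENCODE 29 gene. FKBP2 (chr11:64240845-64241002, plus strand) was the ER member called higher with doxycycline and vehicle. FKBP9 (chr7:32957190-32957403, plus strand) was the ER member that fell the most. PPIA (chr7:44796431-44796679, plus strand) was the cytosolic member with the largest response to thapsigargin. Capitals mark CCAAT and CCACG on either strand. The CCAAT of FKBP2 (bases -64 to -60 from the RefSeq start) and its second CCACG (-47 to -43, minus strand) lie past the end of the stretch shown.
FKBP2: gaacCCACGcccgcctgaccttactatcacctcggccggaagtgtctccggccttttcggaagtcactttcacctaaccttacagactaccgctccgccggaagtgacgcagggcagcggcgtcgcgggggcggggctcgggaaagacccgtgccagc
FKBP9: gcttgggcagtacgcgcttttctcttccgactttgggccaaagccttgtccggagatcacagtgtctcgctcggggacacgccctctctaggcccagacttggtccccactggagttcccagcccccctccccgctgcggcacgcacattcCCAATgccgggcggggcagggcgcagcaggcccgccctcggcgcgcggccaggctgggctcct
PPIA: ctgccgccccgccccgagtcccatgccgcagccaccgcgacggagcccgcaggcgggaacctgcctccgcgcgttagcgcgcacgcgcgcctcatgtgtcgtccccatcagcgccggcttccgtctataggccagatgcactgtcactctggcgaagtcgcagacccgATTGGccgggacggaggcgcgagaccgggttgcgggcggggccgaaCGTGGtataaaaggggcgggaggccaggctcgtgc

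FKBP2, a small isomerase of the ER lumen, was the one member called higher with doxycycline in vehicle-treated cells. The gene (ENSG00000173486.12) lies on the plus strand at chr11:64241003-64244132 (GRCh38, GENCODE 29). Its mRNA was at 35.3, 35.2 and 34.1 CPM in the 3 libraries without doxycycline, at 51.9, 68.6 and 67.6 at 10 ng/mL and at 56.1, 70.6 and 58.0 CPM at 100 ng/mL. Each induced library was above each uninduced one, and the ranges of the low and high dose overlapped. On the log2 scale the change at 100 ng/mL was 0.82 ± 0.12 (SE; edgeR adjusted p = 0.000524), a 1.77-fold rise. At 10 ng/mL it was 0.85 ± 0.13, a fitted ratio of 1.80 (edgeR adjusted p = 0.0123), which missed the threshold of 0.01. It was called in 4 of 6 alternative fits, with adjusted p up to 0.0411 in the others. Among the 4 were DESeq2 (adjusted p = 2.56e-06) and edgeR without the filter on low counts (adjusted p = 0.000125). With a library left out it was called in 1 of 6 fits, without Low ERN2, control replicate 1 (adjusted p = 0.000127, up to 0.0854 in the others). Between the doses the fitted difference was -0.01 ± 0.14 on the log2 scale (edgeR adjusted p = 0.976).

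Thapsigargin raised FKBP2 as well. In cells without doxycycline it was at 53.5, 65.7 and 57.9 CPM with thapsigargin, all above the vehicle libraries, a log2 change of 0.77 ± 0.12 (edgeR adjusted p = 0.000621) or 1.71-fold. At the low dose the thapsigargin libraries were at 58.0, 90.6 and 83.8 CPM and at the high dose at 68.4, 95.0 and 70.1 CPM. These overlapped the vehicle libraries of the same dose, with log2 changes of 0.31 ± 0.18 and 0.39 ± 0.17 (edgeR adjusted p = 0.319 and 0.177). The difference between the responses at the high dose and without doxycycline was -0.30 ± 0.21 (edgeR adjusted p = 0.380).

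**Figure D1:**
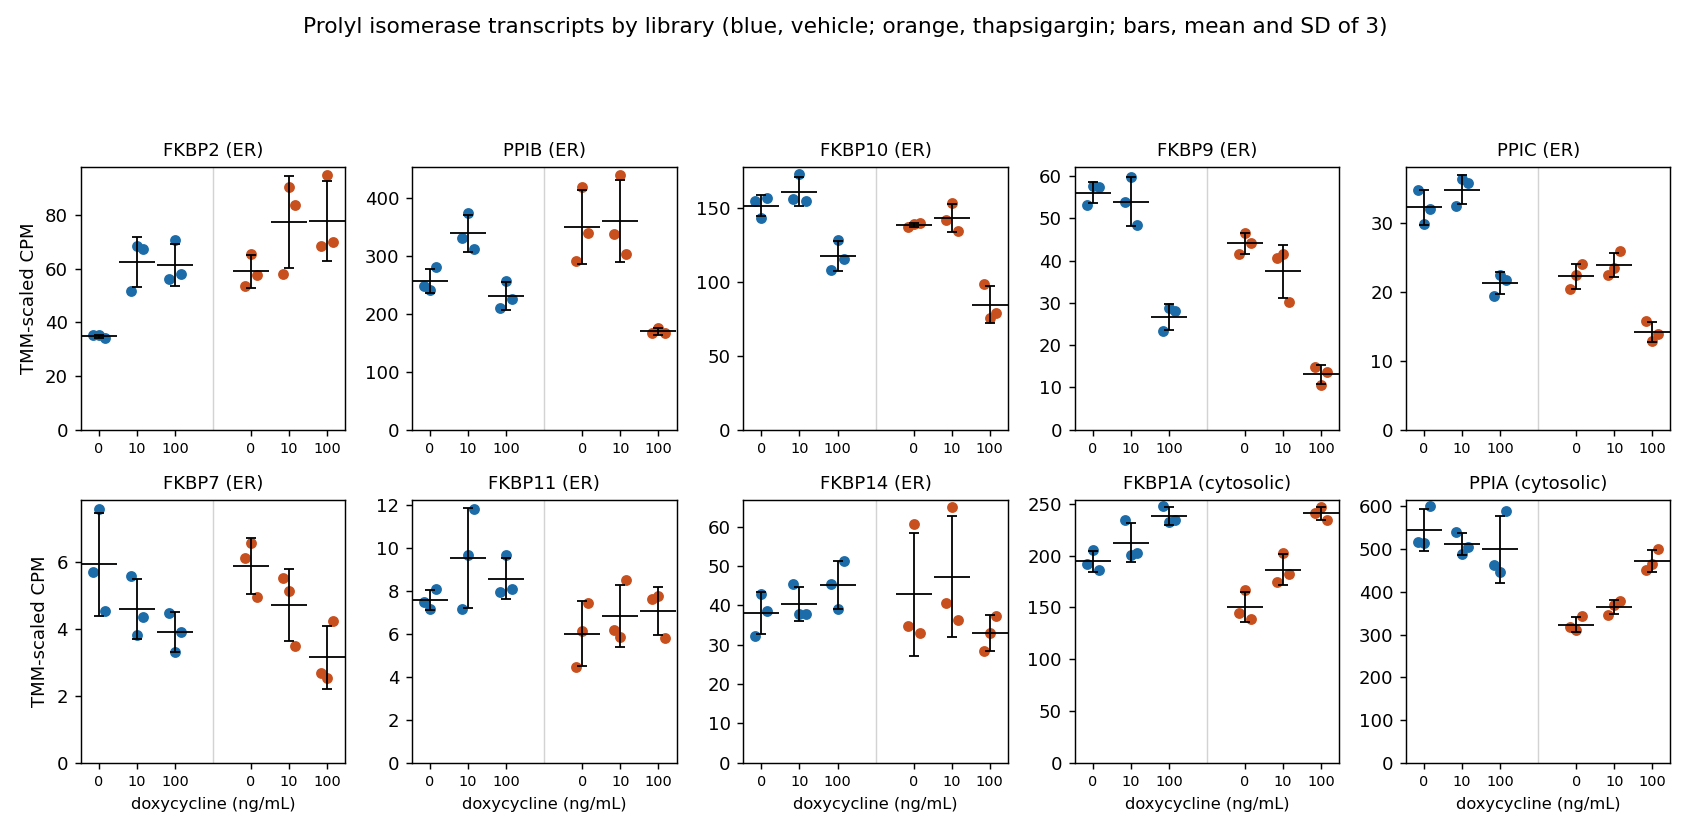
Each panel shows 1 gene, with doxycycline dose in ng/mL on the horizontal axis and TMM-scaled CPM on the vertical axis from 0; points are single libraries, blue for vehicle and orange for thapsigargin, and the bars give mean and SD of 3. FKBP2 lies at 34.1 to 35.3 CPM in uninduced vehicle cells and above 51 CPM in every other group, FKBP9 is lowest at 10.6 to 14.9 CPM with thapsigargin at 100 ng/mL, and PPIA and FKBP1A are lowest with thapsigargin in uninduced cells.

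FKBP9, a large ER isomerase with several FKBP domains and calcium-binding EF hands, went the other way at the high dose. It lies at chr7:32957404-33006931 on the plus strand (ENSG00000122642.10). Uninduced vehicle libraries had 53.2, 57.7 and 57.4 CPM and low-dose ones 53.8, 59.7 and 48.3 CPM, with overlapping ranges (log2 change -0.05 ± 0.12, edgeR adjusted p = 0.777). At 100 ng/mL the mRNA was at 23.2, 28.7 and 28.0 CPM, below each of the 6 other vehicle libraries. The fall from uninduced cells was -1.07 ± 0.12 on the log2 scale, a ratio of 0.476 (edgeR adjusted p = 6.64e-05), and the ratio to the low dose was 0.498 (SE 0.14 on the log2 scale, edgeR adjusted p = 0.00351). The second call was lost without Low ERN2, control replicate 2 or High ERN2, control replicate 1 or 3 (adjusted p = 0.0151 to 0.0293). With thapsigargin the libraries without doxycycline had 41.6, 46.6 and 44.2 CPM, the low-dose libraries 40.7, 41.5 and 30.2 and the high-dose libraries 14.9, 10.6 and 13.7 CPM. High-dose cells were thus at a ratio of 0.310 to uninduced cells under thapsigargin, a log2 change of -1.69 ± 0.17 (edgeR adjusted p = 2.81e-05), the largest of any member in any comparison. Thapsigargin itself gave log2 changes of -0.33 ± 0.11, -0.52 ± 0.15 and -0.98 ± 0.18 without, with low and with high doxycycline, each with no overlap between thapsigargin and vehicle libraries. None of the 3 passed the threshold (edgeR adjusted p = 0.0458, 0.0673 and 0.0226), and the difference between the first and the last response did not either (-0.56 ± 0.19, edgeR adjusted p = 0.104). The response at the high dose was called in 3 of 6 alternative fits, among them DESeq2 (adjusted p = 5.10e-05, up to 0.147 in the fits without a call). With a library left out it was called in 1 of 6 fits, without High ERN2, stress replicate 1 (adjusted p = 0.00064, up to 0.164 in the others).

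PPIC and FKBP10 had the same direction with smaller changes. PPIC (chr5:123023250-123036741, minus strand, ENSG00000168938.5) was at 34.8, 29.8 and 32.0 CPM without doxycycline, at 32.4, 36.3 and 35.7 at the low dose and at 19.4, 22.5 and 21.7 CPM at the high dose. The high-dose libraries were below all others given vehicle, with log2 changes of -0.60 ± 0.13 against uninduced and -0.70 ± 0.12 against low-dose cells (edgeR adjusted p = 0.00607 and 0.00856). The first of these calls was lost on leaving out a library in 4 of 6 fits (adjusted p = 0.019 to 0.039, without No ERN2, control replicate 1 or 3 or High ERN2, control replicate 1 or 3), and with library totals in place of TMM (adjusted p = 0.0105). The second was lost in 5 of 6, all but the fit without Low ERN2, control replicate 1 (adjusted p = 0.0111 to 0.0652). Thapsigargin lowered PPIC in uninduced cells to 20.4, 22.4 and 24.0 CPM (log2 change -0.52 ± 0.12, edgeR adjusted p = 0.00911), a call lost without No ERN2, control replicate 1 or 3 or No ERN2, stress replicate 1 or 2 (adjusted p = 0.0278 to 0.0484). The change was of like size at the low dose (22.4, 23.4 and 25.8 CPM, -0.54 ± 0.13, edgeR adjusted p = 0.0347) and at the high dose (15.7, 12.8 and 13.9 CPM, -0.54 ± 0.16, edgeR adjusted p = 0.0841), where it did not pass.

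FKBP10, which in bone and skin cells assists procollagen and its lysine hydroxylation, lies at chr17:41812680-41823217 on the plus strand (ENSG00000141756.18). It was at 155, 143 and 157 CPM without doxycycline, at 156, 173 and 155 at the low dose and at 108, 129 and 115 CPM at the high dose. The high-dose range was below the others, yet the log2 change of -0.37 ± 0.11 did not pass (edgeR adjusted p = 0.0360). Under thapsigargin uninduced cells had 137, 140 and 140 CPM and high-dose cells 98.8, 75.4 and 79.3 CPM, a log2 change of -0.65 ± 0.14 (edgeR adjusted p = 0.00623). That call was kept in 1 of the 6 fits with a library left out, the one without High ERN2, stress replicate 1 (adjusted p = 0.0184 to 0.0531 in the other 5).

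PPIB showed a different order of levels. It encodes the cyclophilin that joins P3H1 and CRTAP in the collagen prolyl 3-hydroxylation complex, and lies at chr15:64155812-64163205 on the minus strand (ENSG00000166794.4). In vehicle cells its mRNA was at 247, 241 and 280 CPM without doxycycline, at 330, 373 and 312 at the low dose and at 209, 256 and 225 CPM at the high dose. The low-dose libraries were above both other groups, by log2 changes of 0.40 ± 0.11 over uninduced cells (edgeR adjusted p = 0.0771) and with high-dose cells at -0.54 ± 0.11 relative to them (edgeR adjusted p = 0.0195), neither of which passed. The difference between the doses was called by DESeq2 (adjusted p = 0.00187) and by edgeR without the filter on low counts (adjusted p = 0.00695). The fit with the replicate number as a block called it too (adjusted p = 0.00029). With a library left out it was called in 0 of 6 fits (adjusted p = 0.0138 to 0.141). With thapsigargin PPIB was at 291, 418 and 339 CPM in uninduced cells, all above the vehicle range (log2 change 0.46 ± 0.13, edgeR adjusted p = 0.0224). DESeq2 and the fit without a filter on low counts called this rise (adjusted p = 0.00928 and 0.00462). With a library left out it was called in 2 of 6 fits (adjusted p = 0.00979 to 0.101). Low-dose cells given thapsigargin had 337, 439 and 302 CPM. At the high dose thapsigargin libraries had 166, 176 and 167 CPM, below each vehicle library of that dose (log2 change -0.39 ± 0.12, edgeR adjusted p = 0.0958). High-dose and uninduced cells under thapsigargin differed by -0.98 ± 0.15 on the log2 scale, a ratio of 0.506 (edgeR adjusted p = 0.000673). Tested directly, the difference between the responses to thapsigargin at the high dose and without doxycycline was -0.77 ± 0.18. It did not pass in edgeR (adjusted p = 0.0601). Of 6 alternative fits 1 called it, DESeq2 (adjusted p = 0.00229, up to 0.0814 in the others). Of 12 fits with a library left out 1 called it, without High ERN2, stress replicate 1 (adjusted p = 0.00866, up to 0.151 in the others).

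The remaining ER members gave no call. FKBP7, an ER isomerase with EF hands known to bind the chaperone BiP (chr2:178463664-178478600, minus strand), ranged over all libraries from 2.52 to 7.60 CPM, and its high-dose libraries were below the uninduced ones with vehicle (4.50, 3.32 and 3.92 against 5.70, 7.60 and 4.53 CPM, log2 change -0.61 ± 0.22, edgeR adjusted p = 0.0890) and with thapsigargin (2.69, 2.52 and 4.25 against 6.11, 6.59 and 4.96 CPM, -0.84 ± 0.27, edgeR adjusted p = 0.0433). FKBP11, a membrane-anchored isomerase typical of secretory cells (chr12:48921518-48926474, minus strand), ranged from 4.46 to 11.8 CPM, and its largest log2 change was -0.48 ± 0.23, in the response to thapsigargin at the low dose (edgeR adjusted p = 0.228). FKBP14, an ER isomerase that acts on type III collagen (chr7:30010587-30026684, minus strand), ranged from 28.4 to 64.9 CPM. Its 2 highest libraries were replicate 2 of the uninduced and of the low-dose thapsigargin groups, at 60.8 and 64.9 CPM against 32.9 to 40.7 CPM in the other 4 libraries of those groups. PPIB was highest in the same pair of libraries, and so was HSPA5 (the ER chaperone BiP), at 4831 and 4673 CPM against 2846 to 3149 CPM in the others of both groups; the part of these libraries in the PPIB and FKBP14 values was not tested.

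The cytosolic members followed another order. PPIA (chr7:44796680-44824564, plus strand, ENSG00000196262.13) was at 517, 514 and 601 CPM without doxycycline, at 540, 490 and 504 at the low dose and at 463, 447 and 589 CPM at the high dose, with overlapping ranges and no call between doses. In uninduced cells thapsigargin brought it to 318, 310 and 344 CPM, all below the vehicle libraries, a log2 change of -0.74 ± 0.10 and a ratio of 0.600 (edgeR adjusted p = 0.000348). Low-dose cells had 346, 370 and 378 CPM with thapsigargin (-0.48 ± 0.10, edgeR adjusted p = 0.0244). In high-dose cells the thapsigargin libraries, at 452, 465 and 502 CPM, lay within the vehicle range (-0.03 ± 0.14, edgeR adjusted p = 0.888). Under thapsigargin PPIA was therefore higher at the high dose than without doxycycline, by 0.61 ± 0.12 on the log2 scale or 1.53-fold (edgeR adjusted p = 0.00359), a call kept in 1 of the 6 fits with a library left out, the one without High ERN2, stress replicate 1 (adjusted p = 0.0107 to 0.0266 in the other 5). The test of the difference between the responses gave 0.79 ± 0.17 (edgeR adjusted p = 0.0402), short of the threshold. Of 6 alternative fits 1 called it, DESeq2 (adjusted p = 0.00562, up to 0.0621 in the others). Of 12 fits with a library left out 1 called it, again without High ERN2, stress replicate 1 (adjusted p = 0.00664, up to 0.116 in the others).

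FKBP1A (chr20:1368978-1393172, minus strand, ENSG00000088832.16) was at 192, 205 and 186 CPM without doxycycline, at 235, 201 and 202 at the low dose and at 248, 232 and 235 CPM at the high dose. The high-dose libraries were above the uninduced ones, but the log2 change of 0.30 ± 0.10 did not pass (edgeR adjusted p = 0.0628). With thapsigargin the same groups had 145, 167 and 139 CPM, 174, 203 and 182 CPM, and 241, 247 and 234 CPM. In this treatment the 3 doses did not overlap, and high-dose cells exceeded uninduced ones by 0.74 ± 0.14 or 1.67-fold (edgeR adjusted p = 0.00205). The call was kept in 3 of the 6 fits with a library left out and lost without No ERN2, stress replicate 1 or 3 or High ERN2, stress replicate 2 (adjusted p = 0.0121 to 0.0188). Thapsigargin gave log2 changes of -0.36 ± 0.11 without doxycycline (edgeR adjusted p = 0.0265), -0.18 ± 0.11 at the low dose (edgeR adjusted p = 0.351) and 0.06 ± 0.12 at the high dose (edgeR adjusted p = 0.754).

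Counted together, doxycycline at 10 ng/mL changed 0 of the 8 ER and 0 of the 2 cytosolic members in vehicle cells by edgeR, where 0.193% of all genes tested were called. Of the ER members 2 and of the cytosolic ones 0 had an unadjusted p under 0.05, beside 4421 of all 14497 genes tested. DESeq2 called 1 and 0 of them, and 378 genes in all. At 100 ng/mL 1 ER member was called higher (FKBP2) and 2 lower (FKBP9 and PPIC), against 0.838% and 7.49% of all genes called higher and lower, and 8.33% in either direction. The cytosolic pair gave 0 calls in edgeR and in DESeq2, which called 1609 genes in all. An unadjusted p under 0.05 was found for 1 of the pair (FKBP1A), beside 4237 of all 14444 genes tested. The high-dose ranges of 4 ER members (FKBP7, FKBP9, FKBP10 and PPIC) lay wholly below the uninduced ones, against 18.3% of all genes, and that of 1, FKBP2, wholly above, against 14.8%. Between the doses 2 ER members were called lower (FKBP9 and PPIC) and 0 higher, against 2.43% and 0.0137% of all genes, and 2.45% in either direction. The median log2 change of the 8 ER members was 0.10 at the low dose and -0.26 at the high dose, beside 0.0024 and -0.0068 over all genes tested.

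**Figure D2:**
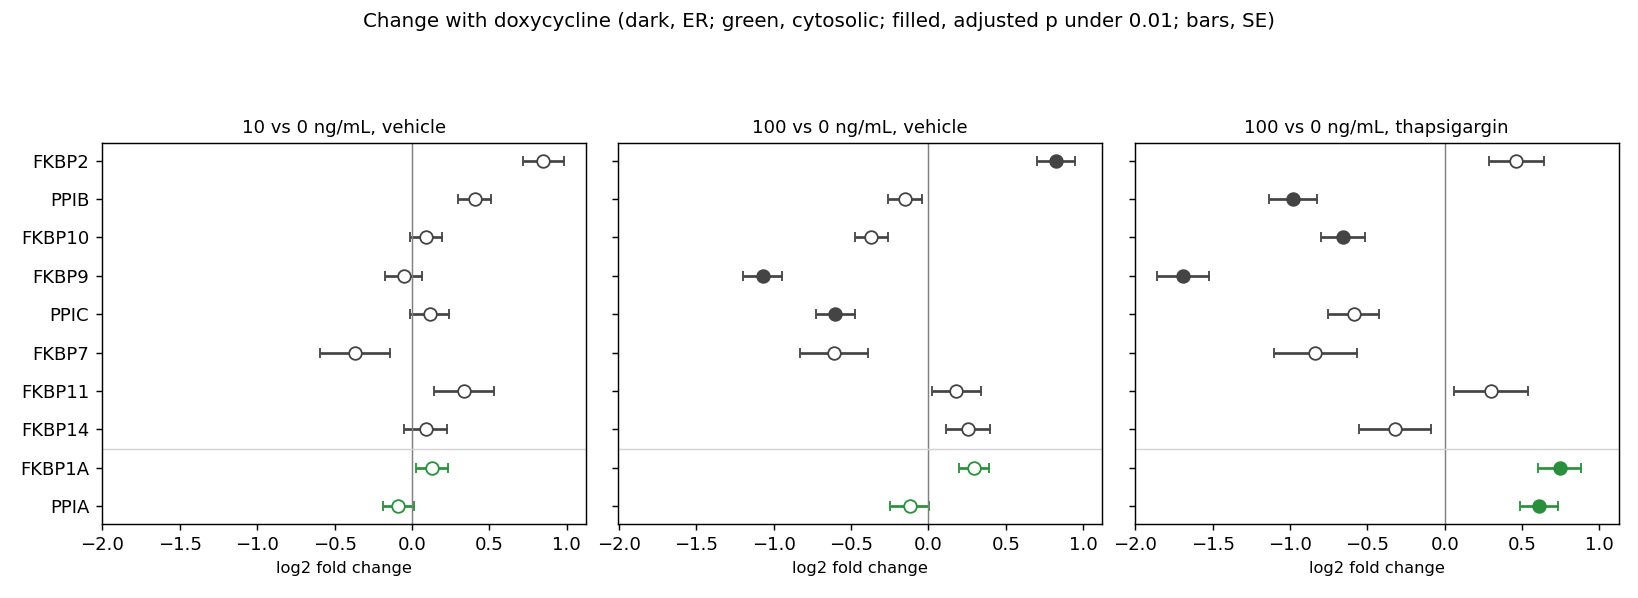
The log2 fold change of each member is on the horizontal axis for 3 comparisons of doxycycline doses, with SE as bars, dark for ER and green for cytosolic members, and filled where the edgeR adjusted p was under 0.01. With vehicle at 100 ng/mL FKBP2 lies at 0.82 and FKBP9 at -1.07; with thapsigargin FKBP9, PPIB and FKBP10 lie at -1.69, -0.98 and -0.65 while FKBP1A and PPIA lie at 0.74 and 0.61.

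Under thapsigargin, ER and cytosolic members were called in opposite directions at the high dose. Of the ER members 3 were called lower than in uninduced cells (FKBP9, PPIB and FKBP10) and 0 higher, whereas both cytosolic members were called higher. Over all genes 9% were called lower and 1.53% higher, and 10.5% in either direction. The ranges of 5 ER members lay wholly below those of uninduced cells, against 23.2% of all genes, and 1, FKBP2 (log2 change 0.46 ± 0.18, edgeR adjusted p = 0.0798), wholly above, against 12.4%. The median log2 change of the ER members was -0.62, of the cytosolic pair 0.68 and of all genes 0.04. Without High ERN2, stress replicate 1 the ER count was 5, with FKBP2 added as higher (adjusted p = 0.00786) and PPIC as lower (adjusted p = 0.00587), and without any one of the other 5 libraries it was 2, FKBP10 being lost. Both cytosolic calls were lost without No ERN2, stress replicate 1 or 3 or High ERN2, stress replicate 2, and 1 was kept without No ERN2, stress replicate 2 or High ERN2, stress replicate 3.

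At 10 ng/mL under thapsigargin edgeR called 0 of 10 members and 0% of 14509 genes, with 612 genes at an unadjusted p under 0.05, while DESeq2 called 39 genes, 0 of them members. Here same-numbered libraries deviated together in all 3 pairs, and the fit with the replicate number as a block called 564 genes. Among these were FKBP2 (log2 change 0.37, adjusted p = 0.00338) and FKBP1A (0.31, adjusted p = 0.00105), both higher.

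Thapsigargin in uninduced cells raised 1 ER member (FKBP2) and lowered 1 (PPIC), and lowered 1 cytosolic member (PPIA). Over all genes 6.45% were called higher and 4.74% lower, and 11.2% in either direction. At the low dose 0 of 10 members were called by edgeR, where 1.45% of all genes were. An unadjusted p under 0.05 was found there for 2 ER and 1 cytosolic member, beside 3602 of all 14607 genes tested. At the high dose again 0 of 10 were called, where 0.201% of all genes were. There 6 ER and 0 cytosolic members had an unadjusted p under 0.05, beside 3892 of all 14427 genes tested. Here 7 of 8 ER members had a log2 change below 0 and the thapsigargin libraries of 6 lay wholly below the vehicle ones, against 15.8% of all genes. DESeq2 called 1 ER member at each of these doses, and 1 cytosolic member at the low dose. Over all genes it called 1039 at the low dose and 728 at the high dose. With the replicate number as a block, edgeR called FKBP9, PPIC and PPIA lower at the low dose (adjusted p = 3.25e-05, 7.1e-05 and 5.08e-06). It called FKBP2 higher there (adjusted p = 0.0065), and 3620 genes in all. The response at the high dose against that without doxycycline was called for 0 members in edgeR, where 0.0406% of all genes were. For this difference 2 ER and 2 cytosolic members had an unadjusted p under 0.05, beside 3651 of all 14768 genes tested. DESeq2 called it for PPIB and PPIA, and for 341 genes in all.

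**Figure D3:**
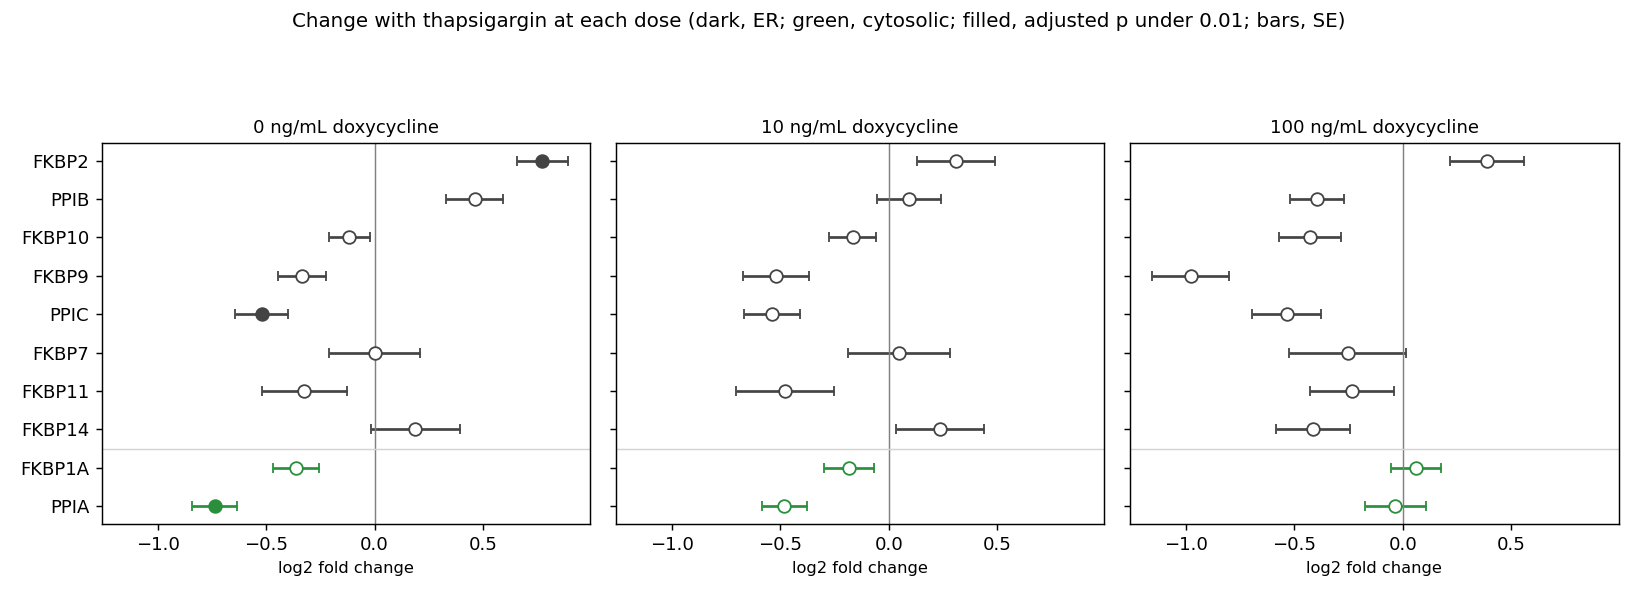
The log2 fold change of each member with thapsigargin is shown at 3 doses of doxycycline, with SE as bars, dark for ER and green for cytosolic members, and filled where the edgeR adjusted p was under 0.01. PPIB moves from 0.46 at 0 ng/mL to -0.39 at 100 ng/mL and PPIA from -0.74 to -0.03, while PPIC stays between -0.54 and -0.52.

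Within a library, the summed CPM of the 8 ER members divided by that of the 2 cytosolic members needs no scaling between libraries. This ratio was 0.789 ± 0.0143 (SD, n = 3) in uninduced vehicle cells, 0.979 ± 0.114 at the low and 0.703 ± 0.105 at the high dose. With thapsigargin it was 1.41 ± 0.176 without doxycycline, 1.27 ± 0.162 at the low dose and 0.564 ± 0.0283 at the high dose. The 6 thapsigargin libraries without or with low doxycycline, at 1.12 to 1.61, were above all 12 others, and the 3 high-dose thapsigargin libraries, at 0.531 to 0.581, were below all others. Both sums moved: the ER sum went from 668 ± 89.9 CPM in uninduced to 402 ± 11 CPM in high-dose thapsigargin cells, and the cytosolic sum from 474 ± 10.2 to 714 ± 21.5 CPM. These sums rest largely on a few abundant members: in uninduced thapsigargin cells PPIB made up 349 ± 64.2 and FKBP10 139 ± 1.57 CPM of the ER sum, and PPIA 324 ± 17.7 CPM of the cytosolic one. PPIB over PPIA, which is thus not independent of the summed ratio, followed the same order, from 1.08 ± 0.233 to 0.359 ± 0.0237 between these groups. FKBP2 over FKBP1A did not, and was 0.394 ± 0.0234 in the first and 0.323 ± 0.0547 in the second, with overlapping ranges.

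**Figure D4:**
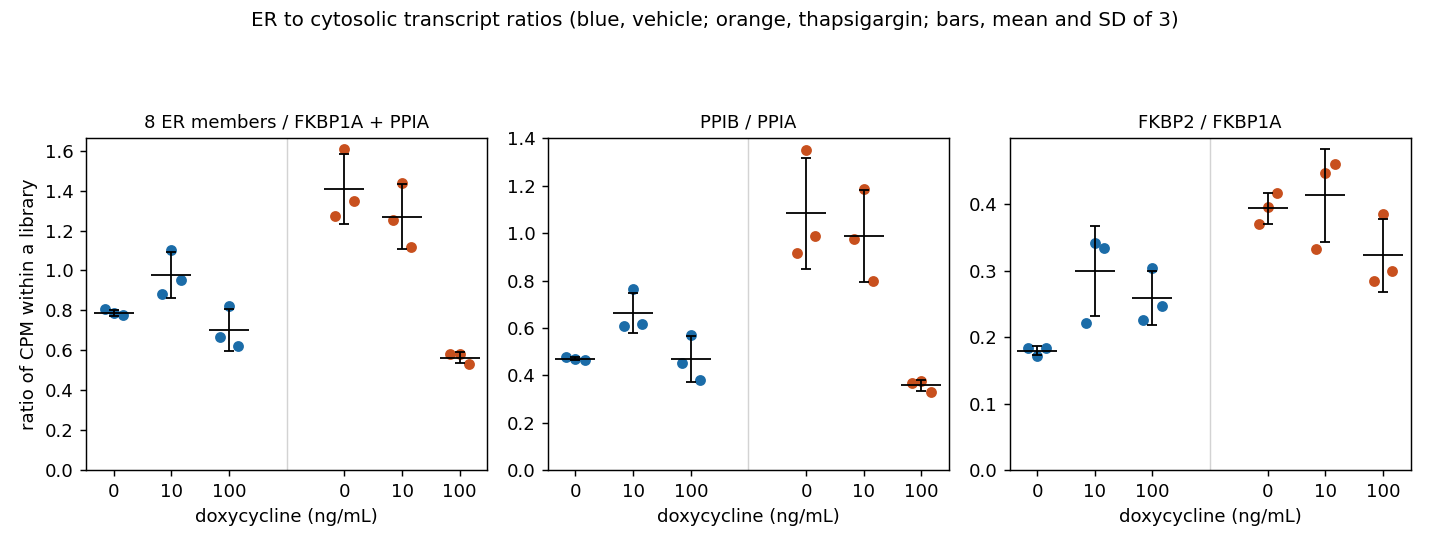
The panels give ratios of CPM within a library on the vertical axis from 0 by doxycycline dose in ng/mL, with blue points for vehicle, orange for thapsigargin and bars for mean and SD of 3. The summed ER to cytosolic ratio is 1.41 in uninduced thapsigargin cells and 0.564 at 100 ng/mL, and the low-dose vehicle libraries at 0.880 to 1.10 are above the uninduced ones at 0.777 to 0.805.

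Other genes of the pathway were counted from lists written by function, with earlier results of these data known. Of 27 other prolyl isomerases, nuclear, mitochondrial or cytosolic for the most part, 25 passed the filter on low counts. At 100 ng/mL with vehicle edgeR called 0 of 25, against 8.33% of all genes called in either direction, and their median log2 change was 0.0040. An unadjusted p under 0.05 was found for 7 of the 25, beside 4237 of all 14444 genes tested. Thapsigargin in uninduced cells raised 3 (FKBPL, PPIL1 and FKBP15, by 0.72, 0.55 and 0.44 on the log2 scale) and lowered 2 (PIN4 and FKBP3, by -0.90 and -0.62), against 6.45% and 4.74% of all genes. Under thapsigargin 1 of the 25 was called higher at the high dose than without doxycycline and 0 lower, against 1.53% and 9% of all genes. Their median log2 change there was 0.21, with 20 above 0 and 5 below. Of 17 chaperones, disulfide isomerases and collagen-modifying enzymes that work beside the ER members, 2 were called higher at 100 ng/mL with vehicle (HSPA5 at 0.84 and PDIA4 at 0.53) and 3 lower, against 0.838% and 7.49% of all genes. The 3 were CALR, a calcium-binding lectin chaperone, at -1.45, CRTAP, the partner of PPIB in the 3-hydroxylation complex, at -1.20, and PLOD2, a lysyl hydroxylase of collagen, at -1.10. In uninduced cells thapsigargin raised 8 of the 17, led by HSPA5 at 2.87, SDF2L1 at 2.80 and HYOU1 at 2.10, and lowered 0, beside the 6.45% and 4.74% of all genes. Under thapsigargin 12 of 17 were called lower at the high dose than without doxycycline and 0 higher, against 9% and 1.53% of all genes, with a median log2 change of -0.90 for the list and 0.04 for all genes.

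Across the 18 libraries, the members differed in which genes they ran alongside. By Pearson r of log2 CPM, given as a description since the points share 6 groups and their treatments, FKBP9 was most like MBTPS1 (0.998), the site-1 protease that activates ATF6, and FKBP10 most like ORAI2 (0.992). PPIC was closest to LGALS3BP (0.982), a secreted glycoprotein, and PPIB to P4HB (0.965), a disulfide isomerase that is also a subunit of collagen prolyl 4-hydroxylase. FKBP2 was closest to NANS (0.955), a sialic acid synthase of the cytosol, and FKBP14 to LMAN1 (0.884), a cargo receptor between ER and Golgi. PPIA was closest to LSM3 (0.982), an RNA-binding protein, and FKBP1A to PSMD10 (0.927), a proteasome assembly factor. Among the members themselves r was highest for FKBP9 with FKBP10 (0.964), and 0.916 for FKBP10 with PPIC and 0.907 for FKBP9 with PPIC. FKBP2 had r of -0.560, -0.413 and -0.509 with these 3, and PPIB with FKBP1A had the lowest r of all pairs, -0.607.

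IRE1-type endoribonucleases are known to cleave mRNA within the letters CTGCAG in a stem-loop, so the 6 letters were counted in the longest protein-coding transcript of each gene. FKBP9 held 5, FKBP10 and FKBP2 3 each, FKBP14 2 and FKBP7 1, while PPIB, PPIC and FKBP11 held 0. Of the cytosolic members PPIA held 5 and FKBP1A 0. The letters stood in 83.5% of 18308 genes, with a median of 2. In vehicle cells at 100 ng/mL, FKBP2 (called higher) and FKBP9 (called lower) held the letters and PPIC (called lower) did not. Under thapsigargin at that dose, FKBP9 and FKBP10 (lower) and PPIA (higher) held them, while PPIB (lower) and FKBP1A (higher) did not. Among members that gave no call, FKBP7 and FKBP14 held them and FKBP11 did not. Structure and the transcripts in use were not examined, and cleavage of these mRNAs was not tested.

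Some counts could be shared with other genes. The table has 1 row for the 88 PPIA pseudogenes of GENCODE 29, and rows of the processed copies FKBP9P1 and FKBP1AP1 with at most 22 and 8 reads in a library, so reads that fit several places could be missing from or added to PPIA, FKBP1A and FKBP9. Exons of PPIB share 519 bases with SNX22 on the opposite strand, those of PPIC 117 with SNX24, those of FKBP11 58 with CCDC65 and those of FKBP1A 187 with SDCBP2-AS1. The kit marks strand, but whether the counting used it was not stated in the sources used here.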

How the data were processed

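Total RNA was sequenced from poly(A) libraries (KAPA stranded mRNA HyperPrep, 75-cycle single reads). The authors deposited raw counts per gene symbol, not normalized, from STAR alignments made through VIPER. The submitters' processing notes name hg38, STAR and DESeq2. The aligner version, annotation and strand setting are not given in the sources used here. Of 25435 rows, 28 carry a date where a symbol stood. Depth was 14876416 to 24652240 counts per library.

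Groups came from the sample titles. Each of 9 comparisons used its own groups in edgeR 4.0.16 (R 4.3.3): filterByExpr at a minimum count of 10, TMM, glmQLFit and glmQLFTest, p-values adjusted by Benjamini-Hochberg across the genes kept, and calls at an adjusted p under 0.01, the level the study used. SE is the size of the log2 change over the root of F. Likeness used log2 CPM with a prior count of 2. The genes named were the members, ERN2, HSPA5, DDIT3 and XBP1, list genes called at the high dose with vehicle or with thapsigargin in uninduced cells (at most 3 per list and direction), and the genes most like each member. The members and lists were chosen with earlier results of these data known. Gene models came from GENCODE 29 and promoters from RefSeq. The test was checked on simulated counts. Replicate counts varied beyond sampling noise (chi-square per degree of freedom 7.33 to 63.8). All 18 libraries were kept.

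Replicate numbers come from the titles. Deviations from the group mean correlated above the cutoff of 0.1 in all 3 same-numbered pairs for low against no doxycycline with thapsigargin (r = 0.343 to 0.467), and in no other comparison. For thapsigargin against vehicle in uninduced cells all 3 were positive but 1 missed it (r = 0.0825 to 0.272). Alternatives were DESeq2 1.42.0, RLE size factors, no filter, all 6 groups in one fit, the replicate block, each library left out and, added after seeing the data, library totals in place of TMM. Figures were drawn with matplotlib 3.10.9.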

Additional observations from a re-analysis of the deposited data

Results flagged for a closer look

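The response to thapsigargin differed between high-dose and uninduced cells, by the edgeR test of the difference itself, for 3 genes examined beside the prolyl isomerases. XBP1, the target of IRE1 splicing, had a difference in log2 response of -2.14 ± 0.129 (SE; adjusted p = 1.2e-06). HSPA5, the ER chaperone BiP, had -1.58 ± 0.219 and PDIA4, an ER disulfide isomerase, -1.40 ± 0.192 (adjusted p = 0.00897 for both, close to the threshold of 0.01). With a library left out, edgeR called as few as 2 genes in all for this difference, so the 3 calls did not all hold in each fit. None of the 10 prolyl isomerases passed this test in edgeR, and DESeq2 called PPIB and PPIA among 341 genes in all.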

How the results depend on the processing

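The calls of FKBP2 and FKBP9 at 100 ng/mL with vehicle, of FKBP9 and PPIB at that dose under thapsigargin, and of FKBP2 and PPIA with thapsigargin in uninduced cells held in each alternative run. With 1 library left out the count of ER members called ran from 0 to 2 of 8 at 10 ng/mL with vehicle, from 2 to 4 at 100 ng/mL, from 0 to 2 between the doses, from 2 to 5 at 100 ng/mL under thapsigargin, from 1 to 3 with thapsigargin in uninduced cells, from 0 to 2 at the high dose and from 0 to 1 in the interaction. The first of these maxima came without Low ERN2, control replicate 1 and those at the high dose under or with thapsigargin and in the interaction without High ERN2, stress replicate 1. The cytosolic count ran from 0 to 2 at 100 ng/mL under thapsigargin and from 0 to 1 in the interaction.

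At 10 ng/mL with vehicle 1 ER member was called with DESeq2, without the filter, with the replicate block and with library totals. Between the doses 1 was called with RLE factors or library totals, 3 with DESeq2 or without the filter (PPIB added) and 4 with the block. At 100 ng/mL with vehicle 2 were called with the block or library totals, and under thapsigargin 2 with the block and 4 with all 6 groups. With thapsigargin, library totals gave 1 ER call in uninduced cells, DESeq2, no filter and the block 3, and DESeq2 and the block gave 2 cytosolic calls there. At the low dose DESeq2 and the fit of all 6 groups gave 1 ER and 1 cytosolic call, and the block 3 and 1. At the high dose DESeq2 and no filter gave 1 ER call and the fit of all 6 groups 3. DESeq2 gave 1 ER and 1 cytosolic call in the interaction. The block left 1 cytosolic call at 100 ng/mL under thapsigargin, where FKBP10 and PPIA had adjusted p = 0.0196 and 0.0143, and PPIC had 0.0461 at 100 ng/mL with vehicle. At the low dose under thapsigargin, where all 3 same-numbered pairs passed the cutoff, it called 1 ER and 1 cytosolic member. Elsewhere the mean r of such pairs was 0.301 for thapsigargin at the low dose, 0.261 between the doses with vehicle and 0.186 for thapsigargin in uninduced cells. In the other comparisons it was -0.113 to -0.0154. The labels give only the replicate number, and whether those libraries were paired was not tested.

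Values near 0 turned sign. FKBP2 between the doses was 0.0028 with DESeq2, 0.0021 with RLE and 0.013 with library totals, and PPIA 0.0071 with library totals. FKBP7 in uninduced cells with thapsigargin was 0.012 with the block and 0.020 with library totals, FKBP1A at the high dose -0.014 with library totals, and the PPIC interaction -0.048 with all 6 groups and -0.099 with library totals. With a library left out, log2 changes at 10 ng/mL with vehicle ran from -0.13 to 0.020 (FKBP9) and -0.015 to 0.19 (FKBP14). Between the doses they ran from -0.12 to 0.062 (FKBP2), -0.30 to 0.027 (FKBP11) and -0.17 to 0.070 (PPIA). Under thapsigargin they ran from -0.14 to 0.49 (FKBP14) and -0.11 to 0.20 (PPIB) at the low dose and -0.49 to 0.037 (FKBP14) at the high dose. For the response to thapsigargin they ran from -0.15 to 0.21 (FKBP7) and -0.16 to 0.35 (FKBP14) in uninduced cells, from -0.086 to 0.22 (FKBP7), -0.068 to 0.39 (FKBP14) and -0.086 to 0.20 (PPIB) at the low dose, from -0.12 to 0.11 (PPIA) at the high dose, and from -0.12 to 0.33 (FKBP11) and -0.11 to 0.12 (PPIC) in the interaction. The cause was not tested.

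Counts over all genes moved more. At 10 ng/mL with vehicle 28 genes were called, against 378 with DESeq2, 623 without the filter, 3 with all 6 groups, 124 with the block and 0 to 2743 with a library left out, the highest without Low ERN2, control replicate 1. At 100 ng/mL 1203 were called and 750 with the block. Between the doses 356 were called, against 783 with DESeq2, 638 without the filter, 628 with all 6 groups, 1224 with the block and 0 to 496 with a library left out. At the low dose under thapsigargin 0 were called, against 39 with DESeq2, 1 without the filter and 564 with the block, and at the high dose 1512, against 2312 with DESeq2, 2641 with all 6 groups and 763 to 3950 with a library left out. For thapsigargin in uninduced cells 1611 were called, against 3571 with the block and 731 to 1901 with a library left out. At the low dose 212 were called, against 1039 with DESeq2, 529 without the filter, 676 with all 6 groups, 3620 with the block and 28 to 494 with a library left out. At the high dose 29 were called, against 728 with DESeq2, 299 without the filter, 941 with all 6 groups, 4 with the block, 51 with library totals and 4 to 2568 with a library left out. The interaction had 6, against 341 with DESeq2, 86 without the filter, 35 with all 6 groups, 3 with the block, 14 with RLE, 20 with library totals and 2 to 1286 with a library left out. The highest of the counts at the high dose with thapsigargin came without High ERN2, stress replicate 1. Depth limits FKBP7 and FKBP11, at 2.52 to 11.8 CPM.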
